A study of Homo sapiens with 38 samples.

Results

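Versipelostatin (VST) is a macrocyclic product of Streptomyces that was first described for blocking the HSPA5 promoter in tumour cells short of glucose. Here 3 cultures that received VST at 3 µM together with a glucose stress were set against the same stress without the compound, 3 of the 38 arrays of the series against 8. The arrays with VST were HT-1080 cells given 2-deoxyglucose (2DG, a glucose analogue that blocks glycolysis and disturbs protein glycosylation), HT-1080 cells under glucose starvation (GS) and HT-29 cells under GS, each for 18 h. The arrays with the stress alone were 3 of HT-1080 with 2DG, 2 of HT-1080 with GS and 3 of HT-29 with GS, for 18 h except HT-29 GS replicate 3, which lasted 14 h. The 9 untreated controls were 6 arrays of HT-1080 and 3 of HT-29. HT-1080 is a human fibrosarcoma line and HT-29 a human colorectal adenocarcinoma line, and all these cultures kept their mitochondrial DNA. The dose of 2DG is not given in the labels, and no array had VST without a stress.

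The cultures were chosen by their titles. Each array was expressed as its log2 change from the control array that its description names, and the mean change of the stress arrays was subtracted from the change with VST. The 3 resulting differences, for 2DG in HT-1080, GS in HT-1080 and GS in HT-29, share no array and served as replicates, although each rests on 1 array with VST. In GS, the VST array and stress replicate 1 of the same line have the same control, and the 2DG array with VST has a control that no array with 2DG alone uses. A positive difference means a higher change with VST, and fold sizes are on the scale of log2 signal plus a small offset. Genes were called at an adjusted p under 0.05 (limma on the 3 differences, Benjamini-Hochberg adjustment over 11456 genes). Nothing in the labels says how far the cultures were independent, so a p-value here measures no more than how these arrays spread.

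When misfolded protein accumulates in the endoplasmic reticulum (ER), 3 membrane sensors, ATF6, IRE1 (gene ERN1) and PERK (gene EIF2AK3), start the unfolded protein response (UPR). ATF6 and the factor made by XBP1 raise ER chaperones and the degradation machinery through promoter elements named ERSE and ERSE-II, and PERK raises amino acid transport, synthesis and CHOP (gene DDIT3) through ATF4. Glucose shortage starts this programme because glycosylation and ER folding need glucose. HSPA5 (also known as BiP or GRP78) is the chaperone by which the response is commonly read.

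The 5 promoters below are shown because they carry one of these elements and belong to ER genes that differ in their response to VST. Each is the RefSeq window of 300 bases, 250 before and 50 after the start, in assembly GRCh38.p14, read 5′ to 3′ on the gene's strand. Capitals mark, on either strand, exact matches to the ERSE (CCAAT, any 9 bases, CCACG) or the ERSE-II (ATTGG, any 1 base, CCACG), which do not overlap each other in these windows. Near matches, which the windows of HSPA5 and HERPUD1 also hold, are neither marked nor counted. The counts of elements here and below are thus of exact matches only. CRELD2 (chr22:49918384-49918683, plus strand) has 1 ERSE, SDF2L1 (chr22:21642052-21642351, plus strand) and HERPUD1 (chr16:56931892-56932191, plus strand) have 1 ERSE-II each, HSP90B1 (chr12:103930160-103930459, plus strand) has 2 ERSE, and HSPA5 (chr9:125241294-125241593, minus strand) has 1 ERSE.
CRELD2: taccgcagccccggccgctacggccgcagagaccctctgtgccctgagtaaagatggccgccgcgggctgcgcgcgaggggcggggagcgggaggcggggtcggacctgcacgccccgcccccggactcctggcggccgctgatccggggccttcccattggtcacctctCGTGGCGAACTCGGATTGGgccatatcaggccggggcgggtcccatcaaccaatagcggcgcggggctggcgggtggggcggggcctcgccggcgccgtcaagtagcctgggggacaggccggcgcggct
SDF2L1: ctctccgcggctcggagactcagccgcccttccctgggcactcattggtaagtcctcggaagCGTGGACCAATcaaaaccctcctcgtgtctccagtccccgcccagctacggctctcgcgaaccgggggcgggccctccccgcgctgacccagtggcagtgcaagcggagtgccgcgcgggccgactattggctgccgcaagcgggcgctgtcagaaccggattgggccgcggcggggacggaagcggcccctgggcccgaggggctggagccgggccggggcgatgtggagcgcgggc
HERPUD1: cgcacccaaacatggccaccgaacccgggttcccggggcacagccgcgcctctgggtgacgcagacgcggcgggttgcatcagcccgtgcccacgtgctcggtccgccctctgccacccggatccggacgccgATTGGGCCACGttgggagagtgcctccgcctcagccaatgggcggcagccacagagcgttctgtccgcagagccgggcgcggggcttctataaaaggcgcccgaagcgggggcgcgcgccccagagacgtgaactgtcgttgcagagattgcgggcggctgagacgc
HSP90B1: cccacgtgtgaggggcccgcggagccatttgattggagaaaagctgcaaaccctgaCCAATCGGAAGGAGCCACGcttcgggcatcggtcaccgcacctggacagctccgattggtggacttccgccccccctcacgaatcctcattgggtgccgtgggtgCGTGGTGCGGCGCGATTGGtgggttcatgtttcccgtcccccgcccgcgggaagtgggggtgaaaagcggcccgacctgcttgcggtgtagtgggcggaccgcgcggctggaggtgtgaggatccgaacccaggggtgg
HSPA5: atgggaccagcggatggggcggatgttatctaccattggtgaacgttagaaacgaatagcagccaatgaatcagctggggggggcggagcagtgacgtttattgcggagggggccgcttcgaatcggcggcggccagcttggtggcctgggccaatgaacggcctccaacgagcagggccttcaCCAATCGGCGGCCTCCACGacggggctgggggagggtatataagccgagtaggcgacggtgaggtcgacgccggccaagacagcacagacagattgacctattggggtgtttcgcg

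Of 35116 promoter windows in that table, 0.0769% hold the ERSE and 0.0541% the ERSE-II, and of the 9411 measured genes with a window 15 hold the one and 15 the other. Over all 11456 genes 12.6% fell with VST and 6.77% rose. Among the 15 measured genes with an ERSE, 5 fell with VST and 0 rose: ALG12, CRELD2, ERO1B, FICD and HSP90B1. Among the 15 with an ERSE-II, 3 fell and 0 rose: HERPUD1, HYOU1 and SDF2L1. HSPA5, CALR, CANX, PDIA6 and XBP1 also hold the ERSE and did not pass the test, with mean differences of -0.12, -0.04, -0.30, -0.56 and -0.37. For HSPA5 this is by its brighter probe set, and a dimmer one disagrees, as given below. The other ERSE genes that did not pass were EIF2A (0.22), SERP1 (-0.03), SYNPO (-1.0), TMEM120A (0.17) and TRIM5 (-0.78). The 12 ERSE-II genes that did not pass had mean differences from -1.20 (SHCBP1) to 0.63 (CAMTA1). The same letters thus stood before genes that fell and before genes that did not pass.

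The array-wide signal moved with the compound. As deposited, the arrays had a 2% trimmed mean intensity of 89.6 to 99.0 on the 3 arrays with VST, 122 to 131 on the 8 arrays with the stress alone and 124 to 136 on the 9 controls. The value was 93.4 to 101 on 3 further HT-1080 arrays that had 2DG with a biguanide. Beyond the other scalings given below, its part in the results was not tested. The ratio of 3′ to 5′ signal was 1.26 to 1.37 with VST, 1.04 to 1.42 with the stress alone and 1.06 to 1.30 in controls for ACTB, and 0.929 to 1.05, 0.919 to 1.02 and 0.922 to 1.03 for GAPDH. All signals below come after every array was scaled to the same trimmed mean of 114, and the number of arrays limits their precision. The summed signal of 8 colon epithelial markers was 3230 and 3280 on the HT-1080 arrays with VST and 42100 on the HT-29 array with VST, against 2050 to 2530 and 28700 to 38300 with the stress alone, and 2390 to 3070 and 28200 to 38700 in controls. In the summed signal of 9 mesenchymal markers the HT-1080 arrays with VST had 16000 and 18500 and the HT-29 array 11200, against 13200 to 16800 and 6170 to 7150 with the stress alone, and 13000 to 15700 and 7390 to 9400 in controls. Of these 17 markers, VIM, SPARC, CDH2, COL6A3, ZEB1, EPCAM, CDH1, KRT8, KRT18, KRT19 and LGALS4 separated the lines as labelled, VIM for example with 8380 to 12700 in HT-1080 and 18.5 to 57.4 in HT-29. S100A4 was higher in HT-29 (5870 to 10800 against 5.88 to 37.4) and makes up most of that line's mesenchymal sum, and COL1A1, TAGLN, FN1, KRT20 and VIL1 overlapped or had low signals. The part of these marker levels in the results was not tested. As these are bulk samples, fewer cells of a kind and less RNA per cell cannot be told apart. HT-1080 GS replicate 1 stood apart from replicate 2 in several stress genes, with a signal of 5700 against 724 for HMOX1, a haem-degrading enzyme, and of 6130 against 520 for EGR1, an immediate-early factor.

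VST moved 2213 of 11456 genes (19.3%) in the same way relative to the spread of the 3 cultures: 775 rose (6.77%) and 1438 fell (12.6%). All 775 rises and 1435 of the falls had the same sign in the 3 cultures, and the other 3 falls (0.0262%) had mixed signs. The falls were also larger. Their median was -1.23, with 1060 of the 1435 at least 2-fold by their mean and 118 at least 4-fold, while the median rise was 0.73, with 157 at least 2-fold and 11 at least 4-fold. In 430 genes (3.75%) all 3 differences were -1 or lower, and in 52 genes (0.454%) all 3 were 1 or higher. Of the genes that fell, 1233 (10.8% of all) were below their own controls in the 3 cultures with VST and 26 (0.227%) were above them, and 629 of the rises (5.49%) were above their own controls. The change with VST lay outside all changes with the stress alone in the 3 cultures for 1544 genes upward (13.5%) and 2130 downward (18.6%). The split of rises and falls depends on scaling: 108 rose and 3170 fell with the deposited scaling, where the median difference of all genes was -0.44 against -0.06 here, and 439 rose and 1086 fell after quantile normalization. Without the intensity trend in the test the count was 464, and leaving out HT-1080 GS with VST left 945 and leaving out HT-1080 2DG with VST left 1475.

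The ER folding machinery was lower with VST in each culture. Of 23 measured ER chaperones and folding factors 12 fell (52.2%, against 12.6% of all genes) and 0 rose. The median difference was -0.72 against -0.06 over all genes. By culture the list medians were -0.84 for 2DG in HT-1080, -0.81 for GS in HT-1080 and -0.71 for GS in HT-29. The median change from own control of these 23 genes was 0.41, 0.33 and 0.44 with VST in these cultures, against 1.31, 1.39 and 1.14 with the stress alone. With the deposited scaling 20 fell, where 3170 of all 11456 genes fell. Relative to the median of all genes the list stood at -0.66 here, -0.69 with the deposited scaling and -0.94 after quantile normalization. Against their own controls 9 of the 23 were still called higher with VST and 0 lower, where 6.46% of all genes were called higher and 12.5% lower.

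SDF2L1, an ER protein that works with HSPA5 and its J-domain partners, had signals of 319 in 2DG-treated HT-1080, 238 in starved HT-1080 and 351 in starved HT-29 cells with VST. With the stress alone it had 1260, 1080 and 917 with 2DG, 1240 and 1660 with GS in HT-1080, and 1810, 1320 and 1250 in HT-29. The 6 HT-1080 controls ran from 210 over a median of 242 to 299, and the HT-29 controls had 542, 305 and 740. The arrays with VST lay below all 8 stress arrays. In HT-1080 the 2DG array with VST was above all 6 controls of the line and the starved one was among them, and the HT-29 array was within its controls. The mean difference was -2.05 (SE 0.21, adjusted p = 0.00214, limma), and the gene fell in each culture taken alone. CRELD2, a secreted ER stress protein, behaved likewise, with 304, 279 and 466 on the arrays with VST against 1220 to 3280 on the stress arrays and 260 to 920 in controls. Its mean difference was -2.27 (SE 0.24, adjusted p = 0.00214, limma).

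HSP90B1, the ER member of the HSP90 family, had 2770, 2500 and 3270 with VST. With the stress alone it had 7500, 6880 and 6280 with 2DG, 6100 and 6410 with GS in HT-1080, and 4860, 4650 and 2890 in HT-29. Its controls ran from 1500 to 2430. Both HT-1080 arrays with VST were below their stress arrays. The HT-29 array with VST lay below GS replicates 1 and 2, also of 18 h, and above replicate 3, of 14 h. The mean difference was -1.06 (SE 0.21, adjusted p = 0.0112, limma), and the call was lost without the intensity trend.

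HSPA5 itself did not pass the test by its brighter probe set, the one that stands for it here. It had 10100, 10100 and 7890 with VST, against 10300, 9640 and 8890 with 2DG alone, 9890 and 9100 with GS in HT-1080, and 11700, 12000 and 8160 with GS in HT-29, and its controls ran from 3360 to 5170. All arrays with VST were above all controls, the HT-1080 arrays with VST overlapped the stress arrays or lay just above them, and the HT-29 array lay just below its stress arrays. The differences were -0.01, 0.19 and -0.53, with a mean of -0.12 (SE 0.14, adjusted p = 0.589, limma). Against own controls HSPA5 was 1.16 higher with VST (SE 0.17, adjusted p = 0.00589, limma). A second, dimmer probe set for HSPA5 gave 342, 181 and 102 with VST. With the stress alone it gave 1340, 774 and 444 with 2DG, 2560 and 2370 with GS in HT-1080, and 557, 378 and 337 in HT-29. On it each array with VST lay below all stress arrays of its culture, so the 2 probe sets disagree. Among the other members that fell were HYOU1, a large ER chaperone (-1.43), DNAJC3, a J-domain protein that restrains PERK (-1.54), DNAJB11 (-1.19), MANF (-1.12), PDIA4, a disulfide isomerase (-1.18), and FKBP14, a prolyl isomerase (-1.89). CALR and CANX, the lectin chaperones that fold glycoproteins, did not pass (-0.04 and -0.30), nor did DNAJB9, a J-domain cofactor of HSPA5 (-1.05, adjusted p = 0.0912, limma), with differences of -0.28 and -0.40 in HT-1080 and -2.46 in HT-29.

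**Figure D1:**
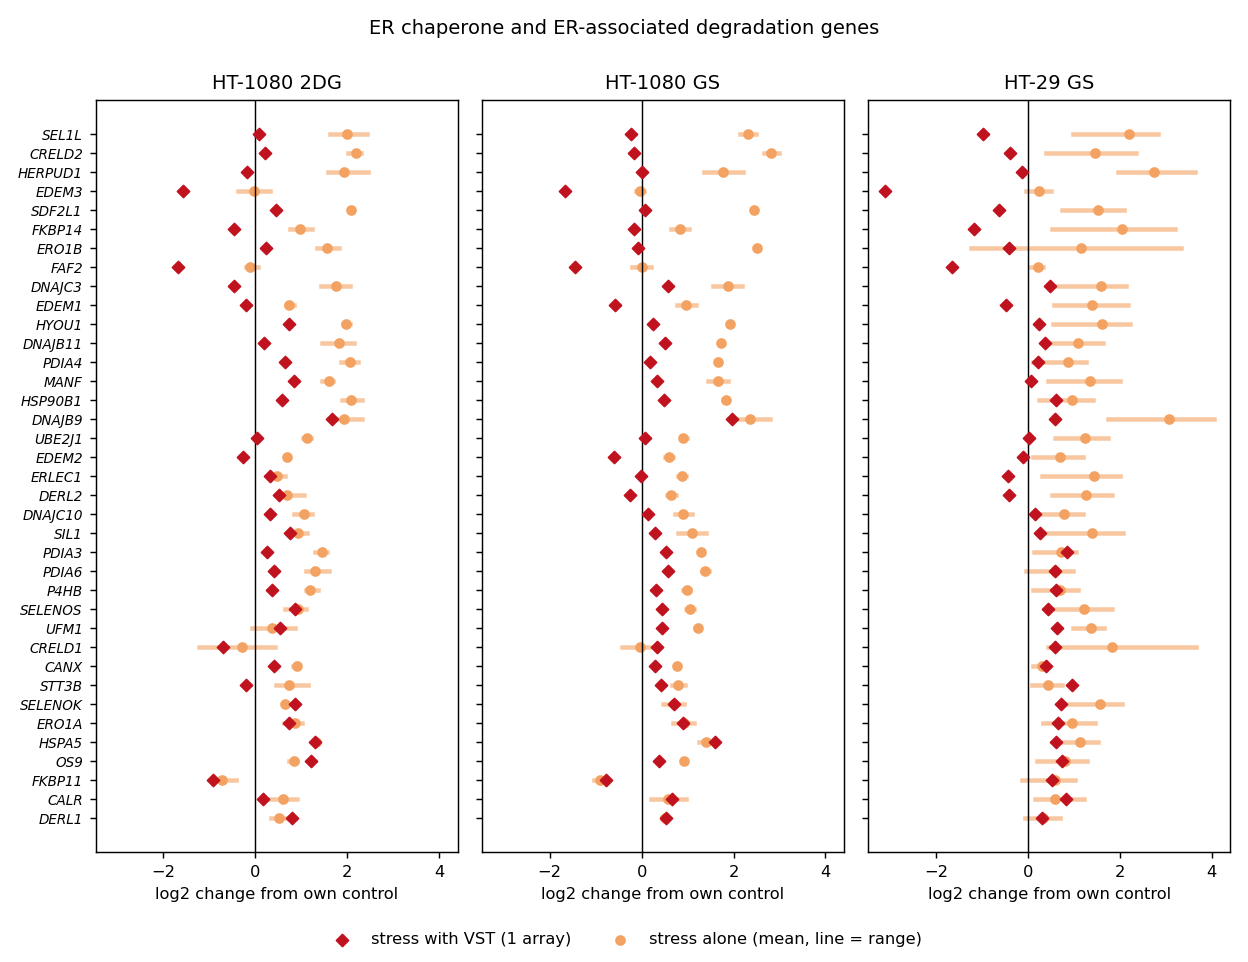
Log2 change from own control of 37 measured ER chaperone and ER-associated degradation genes, ordered by their mean difference with VST. Red diamonds are the single array with VST, orange points the mean of the arrays with the stress alone and orange lines their range. With VST the change was below that of every stress array in 28, 29 and 20 of the 37 genes from the left to the right panel. The range in HT-29 includes the 14 h array, replicate 3.

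ER-associated degradation (ERAD), which extracts misfolded proteins for the proteasome, showed the same direction. Of 14 measured genes 9 fell (64.3%, against 12.6% of all genes) and 0 rose, with a median of -0.98. HERPUD1, a scaffold of the ERAD complex, had 709, 587 and 596 with VST. With the stress alone it had 2900, 2630 and 2250 with 2DG, 2740 and 2870 with GS in HT-1080, and 4130, 5810 and 3570 in HT-29, and its 9 controls ran from 463 to 1120. Signals with VST were thus below all stress arrays and among the controls. Its differences were -2.12, -1.78 and -2.87, with a mean of -2.26 (SE 0.22, adjusted p = 0.00214, limma), and it fell in each culture taken alone. SEL1L, the partner of the ERAD ubiquitin ligase, had 303, 231 and 158 with VST against 529 to 2160 with the stress alone and 260 to 317 in controls. Its mean difference was -2.54 (SE 0.26, adjusted p = 0.00214, limma). EDEM3, a mannosidase that marks glycoproteins for disposal (-2.17), and FAF2, an adaptor that recruits the extraction ATPase (-1.63), also fell, and both were below their own controls in every culture with VST. DERL1 and OS9 did not pass (0.09 and -0.09).

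The sensors and factors of the UPR did not move together. Of 13 measured genes 4 fell (30.8%) and 1 rose (7.69%), against 12.6% and 6.77% of all genes, with a median of -0.37. EIF2AK3, the PERK kinase, had 50.1, 38.0 and 101 with VST, against 232, 219 and 165 with 2DG, 267 and 169 with GS in HT-1080, and 1020, 905 and 411 in HT-29, and its controls ran from 76.4 to 207. The arrays with VST were below all their stress arrays and below their own controls. The mean difference was -2.40 (SE 0.26, adjusted p = 0.00221, limma). ERN1, which encodes IRE1, fell by 1.80 (SE 0.35, adjusted p = 0.0104, limma), although its other 2 probe sets that passed the filter had mean differences of 0.34 and 0.70. XBP1 (-0.37, adjusted p = 0.322), ATF6 (-0.43, adjusted p = 0.274) and ATF4 (-0.04, adjusted p = 0.894) did not pass in the limma test.

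DDIT3 was the member that rose. CHOP, its product, is a transcription factor of prolonged ER stress. Its signals were 624, 1620 and 4170 with VST, against 762, 789 and 123 with 2DG, 1490 and 1120 with GS in HT-1080, and 3280, 3600 and 1680 in HT-29, and its 9 controls ran from 34.1 to 183. The starved cells with VST were above their stress arrays, while the 2DG array with VST lay within the range of the 2DG arrays. The differences were 0.91, 1.19 and 1.08, with a mean of 1.06 (SE 0.21, adjusted p = 0.0109, limma). This call was not made in any culture taken alone and was lost without the intensity trend, without HT-1080 GS with VST, without 2DG replicate 3 or GS replicate 2 of HT-1080, and without own controls. It was also lost with 1 VST coefficient shared by the cultures (0.74, adjusted p = 0.257, limma) and with only the GS array of the same control (0.46, adjusted p = 0.214, limma). Against that array, the change of DDIT3 from the shared control was 4.84 with VST and 4.71 with GS alone in HT-1080, and 6.71 and 6.37 in HT-29.

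Part of amino acid synthesis and transport, which ATF4 drives, fell with VST. Of 19 measured genes 8 fell (42.1%, against 12.6% of all genes), 0 rose and 11 did not pass. The median was -1.06 by the mean difference, and -1.14, -0.78 and -0.38 for 2DG in HT-1080, GS in HT-1080 and GS in HT-29. SLC38A2, a sodium-coupled transporter of small neutral amino acids, had 429, 475 and 448 with VST. It had 2620, 2890 and 2700 with 2DG, 2890 and 2650 with GS in HT-1080, and 3940, 3440 and 3640 in HT-29, and its controls ran from 1610 to 2900. With VST it was below all stress arrays and all controls. The differences were -2.61, -2.30 and -3.06, with a mean of -2.66 (SE 0.17, adjusted p = 0.000598, limma). SLC7A5, the catalytic subunit of a leucine exchanger (-2.09), SLC7A1, a carrier of cationic amino acids (-1.48), SLC1A4, an alanine and serine carrier (-1.41), and PSAT1 of serine synthesis (-1.31) also fell. ASNS, asparagine synthetase, had 762, 1060 and 2960 with VST, against 3640 to 4970 with 2DG, 3870 and 4550 with GS in HT-1080, and 4280 to 6060 in HT-29. Its mean difference was -1.40 (SE 0.36, adjusted p = 0.0264, limma) and its differences were -2.58 with 2DG, -1.42 with GS in HT-1080 and -0.20 in HT-29. The ASNS call was lost without the intensity trend, without either HT-1080 array with VST and without HT-29 GS replicate 1.

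Other targets of ATF4 and CHOP were mixed. Of 23 measured genes 6 fell (26.1%) and 1 rose (4.35%), against 12.6% and 6.77% of all genes, with a median of -0.52. SLC7A11, the cystine carrier (-1.88), INHBE, a secreted activin subunit (-2.66), and VLDLR, a lipoprotein receptor (-1.95), fell, and GDF15, a secreted stress hormone, rose (1.30). The INHBE call was lost without the intensity trend and without HT-1080 GS replicate 1, and the VLDLR call without the intensity trend. GDF15 had 3900, 5150 and 5050 with VST, against 719 to 1820 with 2DG, 2300 and 1330 with GS in HT-1080, and 3460 to 8270 in HT-29, so it was above the stress arrays in HT-1080 and among them in HT-29. The GDF15 call was lost with the deposited scaling, after quantile normalization, without the intensity trend, without either HT-1080 array with VST and without HT-29 GS replicate 1 or 3. ATF3, a related factor (0.99, adjusted p = 0.0777), TRIB3, a pseudokinase that inhibits AKT (-0.89, adjusted p = 0.077), and CHAC1, which degrades glutathione (-1.93, adjusted p = 0.0701), did not pass in the limma test. CHAC1 had 50.9, 58.7 and 23.4 with VST, against 84.8 to 216 with 2DG, 365 and 112 with GS in HT-1080, and 356 to 903 in HT-29. It was below all stress arrays, and its large difference of -4.21 in HT-29 stood beside 0.16 for GS in HT-1080, where its controls were 18.7 and 317. Of 17 aminoacyl-tRNA synthetases, which charge tRNAs, 3 fell (17.6%) and 1 rose (5.88%), near the 12.6% and 6.77% of all genes: WARS1 (-2.0), AARS1 (-0.90) and SARS1 (-0.67) fell, and KARS1 rose (0.57).

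The neighbouring secretory steps and hypoxia targets fell in part. Over all genes 12.6% fell and 6.77% rose. Of 28 measured genes of N-glycosylation and the hexosamine pathway 9 fell (32.1%) and 1 rose (3.57%). The falls included ALG2 (-2.13), ALG14 (-1.93) and ALG12 (-1.81), which build the lipid-linked sugar chain. Subunits of the oligosaccharyl transferase RPN1, RPN2 and DDOST did not pass (-0.15, -0.10 and -0.09). Of 36 genes of ER translocation and vesicle traffic 10 fell (27.8%) and 2 rose (5.56%). SEC24D, a coat protein of ER export vesicles, had a difference of -1.68. Of 15 hypoxia targets 5 fell (33.3%) and 0 rose, with a median of -0.67. VEGFA, the angiogenic growth factor, had 351, 299 and 153 with VST, against 871 to 2900 with the stress alone and 199 to 875 in controls, and fell by 2.09 (SE 0.25, adjusted p = 0.00277, limma). Its 3 other probe sets had mean differences of 0.19, -0.27 and -1.39.

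**Figure D2:**
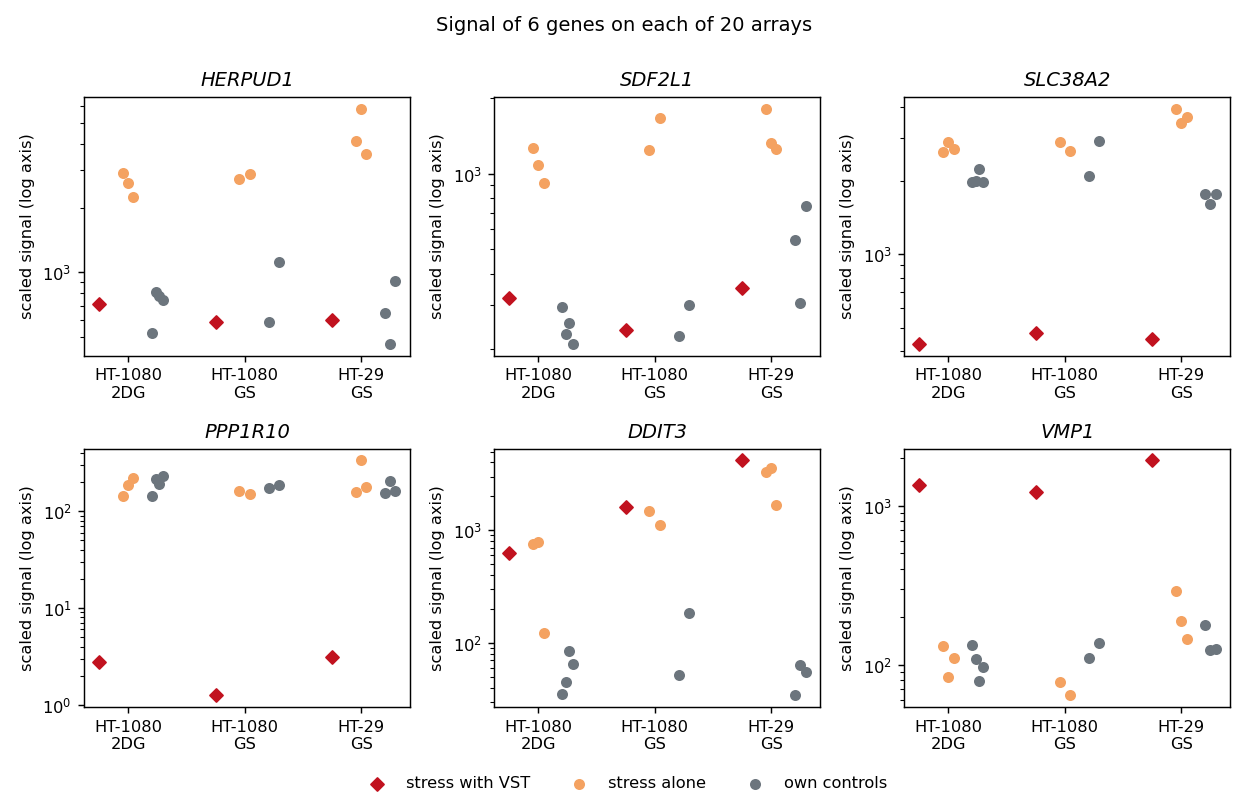
Scaled signal of 6 genes (log axis) on all 20 arrays, by culture, with the array of stress with VST at the left, the arrays of stress alone in the middle and their own controls at the right of each group. HERPUD1 with VST lay within the range of the controls of its line, SDF2L1 did so except in HT-1080 with 2DG (319, above every HT-1080 control), SLC38A2 and PPP1R10 lay below every control, and VMP1 lay above every other array shown.

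By its mean the largest fall was that of PPP1R10. PPP1R10, a nuclear subunit that targets protein phosphatase 1 to chromatin, had 2.79, 1.25 and 3.11 with VST, at the bottom of the signal range. With the stress alone it had 143, 184 and 221 with 2DG, 162 and 152 with GS in HT-1080, and 158, 334 and 179 in HT-29, and its 9 controls ran from 145 to 229. The arrays with VST overlapped neither the stress arrays nor the controls. With VST its signals were below the offset of 5.69 added before log2, so the offset limits the size of the difference and its spread. The differences were -4.66, -4.51 and -4.47, with a mean of -4.55 (SE 0.24, adjusted p = 0.000224, limma), and its second probe set had a mean difference of -2.88. CUL3, the scaffold of a family of ubiquitin ligases, had 311, 271 and 75.1 with VST against 1080 to 1840 with the stress alone and 1760 to 2130 in controls, with a mean difference of -3.0 (SE 0.35, adjusted p = 0.00267, limma).

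The other falls among the 12 largest were RNF145, a ubiquitin ligase of the ER membrane (-3.63), ZC3HAV1, an antiviral RNA-binding protein (-3.45), DIDO1 (-3.27), STK40 (-3.27), ATXN1, the spinocerebellar ataxia protein (-3.18), GCNT2, a glycosyltransferase (-3.14), PLEKHM1, an adaptor of lysosome fusion (-3.09), MAML3, a Notch coactivator (-2.92), HMOX1 (-2.89) and NACC2 (-2.88). With the exception of HMOX1, these were also lower than their own controls in each culture with VST. HMOX1 had 61.6, 258 and 92.0 with VST, against 81.5 to 142 with 2DG, 5700 and 724 with GS in HT-1080, and 2020 to 4210 in HT-29. Its differences were -2.59 and -4.90 in the starved cultures and -1.19 with 2DG. The probe sets of several of these genes differ: the other probe set had a mean difference of 0.08 for STK40, 0.01 for RNF145, -0.10 for PLEKHM1 and 0.30 for NACC2. For STK40, quantile normalization and the smaller offset put that other probe set forward, and the difference was then 0.25 and 0.08. Among named genes that were called with the same sign in all cultures, 79 had further probe sets that passed the filter. Of these 137 probe sets, 22 had a mean of the opposite sign. This set is not that of the 79 genes in the closing sections.

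Among the rises VMP1 was the largest by its mean. It encodes an ER membrane protein needed to form autophagosomes. Its signals were 1340, 1220 and 1920 with VST. With the stress alone they were 132, 84.2 and 110 with 2DG, 78.5 and 64.2 with GS in HT-1080, and 290, 188 and 146 in HT-29, and the 9 controls ran from 79.1 to 178. No array with VST overlapped the others. The differences were 3.48, 4.15 and 2.90, with a mean of 3.51 (SE 0.28, adjusted p = 0.00148, limma), and VMP1 was called in each culture taken alone. DIS3L2, an exonuclease that degrades uridylated RNA, had 366, 376 and 372 with VST against 52.8 to 126 with the stress alone and 54.7 to 70.5 in controls (mean difference 1.99, SE 0.28, adjusted p = 0.00424, limma). CXCL8, a neutrophil chemokine, had 2920, 1910 and 1730 with VST, against 358 to 937 with 2DG, 391 and 241 with GS in HT-1080, and 88.0 to 469 in HT-29. The HT-1080 controls of CXCL8 ran from 488 over a median of 662 to 1830, and the HT-29 controls had 98.3, 166 and 52.2. It was above the stress arrays in every culture, with a mean difference of 2.49 (SE 0.31, adjusted p = 0.00294, limma).

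TAF1D, a factor of RNA polymerase I whose transcript hosts small nucleolar RNAs, had 138, 388 and 765 with VST, against 39.3 to 79.4 with the stress alone and 40.1 to 110 in controls. Its mean difference was 2.17 (SE 0.44, adjusted p = 0.0119, limma). H1-2, a linker histone, had 1520, 1580 and 472 with VST, against 405 to 627 with the stress alone in HT-1080 and 34.9 to 85.2 in HT-29. Its mean difference was 2.13 (SE 0.27, adjusted p = 0.00324, limma). The rest of the 12 largest rises were H2AC8, a core histone (2.95), RRN3P2, a pseudogene (2.35), SNORA71A and SCARNA2, small guide RNAs (2.31 and 2.16), MIA, a secreted protein of melanoma and cartilage (2.21), CREB5, a transcription factor (2.21), and ZNF333 (2.03). Calls of several were lost with 1 array fewer: SNORA71A and SCARNA2 without either HT-1080 array with VST, RRN3P2 and SNORA71A without the HT-29 array with VST, RRN3P2 and ZNF333 without HT-1080 GS with VST, MIA without HT-1080 2DG with VST, and CREB5 without either HT-1080 array. SCARNA2 was also lost with only the GS array of the same control and was called in no culture taken alone. Apart from CREB5 these had signals of 262 or less with VST, and CREB5 has 3 other probe sets, with means of -0.88, -0.96 and 0.41, one of which stands for it with the deposited scaling (-1.29) and with the smaller offset (-0.99).

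**Figure D3:**
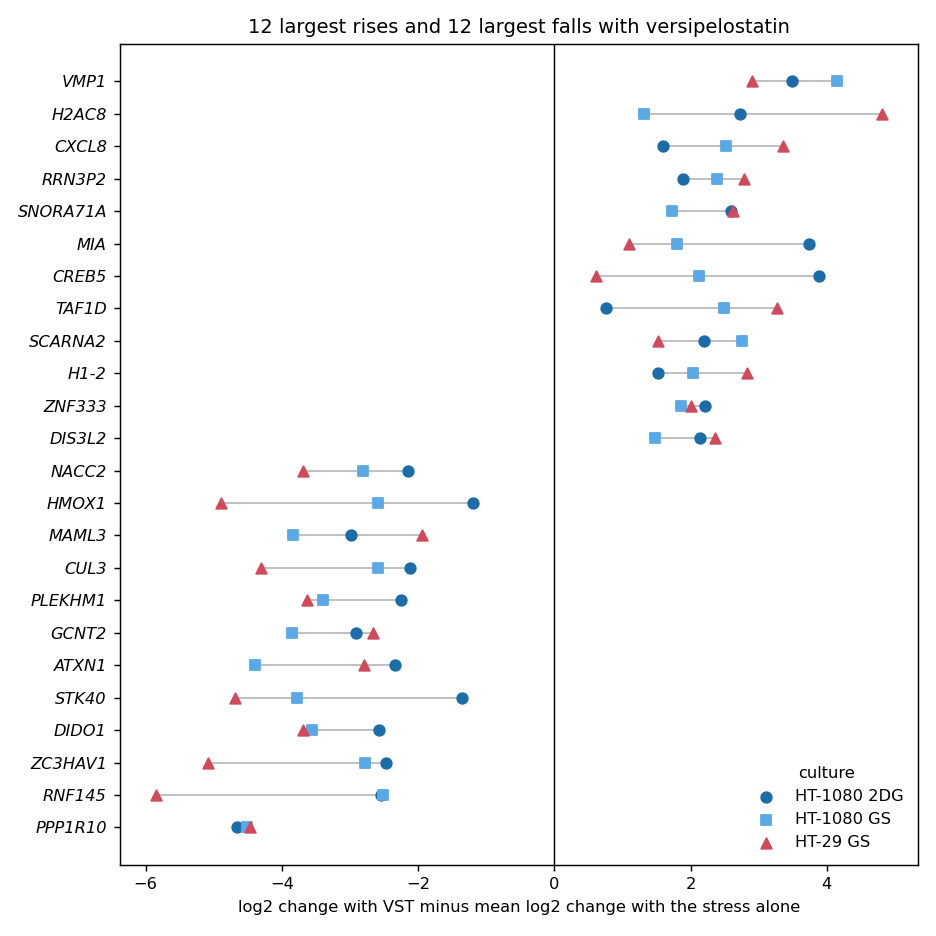
The 3 differences (log2 change with VST minus the mean change with the stress alone) for the 12 largest rises and the 12 largest falls among genes past the threshold with the same sign in all cultures. Each symbol is 1 culture; PPP1R10 ran from -4.66 to -4.47, where its signals with VST were below the offset of 5.69, and RNF145 and H2AC8 were farthest in HT-29.

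Histone, metallothionein and small nucleolar RNA genes were looked up after these values were seen, so their counts describe and do not test. Of 22 measured histone cluster genes 10 rose (45.5%, against 6.77% of all genes) and 0 fell (median 1.23). All 6 measured metallothioneins, small proteins that bind zinc and copper, rose (median 1.09), and of 14 small nucleolar RNA genes and hosts 5 rose and 0 fell (median 0.64). MT1X had 6900, 8410 and 3370 with VST, against 2880 to 4170 with 2DG, 3340 and 4580 with GS in HT-1080, and 692 to 2990 in HT-29. Its controls ran from 1510 to 3990. MT1X with VST was above the stress arrays in every culture, with a mean difference of 1.17 (SE 0.13, adjusted p = 0.00221, limma). Members of these families are near copies of each other, so a probe set may read more than 1 of them.

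Part of the cell cycle genes rose with VST. Of 34 measured genes of DNA replication and G1/S 17 rose (50%) and 1 fell (2.94%), with a median of 0.77. Of 32 genes of mitosis 16 rose (50%) and 0 fell, with a median of 0.64. Over all genes 6.77% rose and 12.6% fell. The median change from own control of the replication list was -0.12, -0.19 and -0.25 with VST in the 3 cultures, against -0.56, -1.17 and -1.04 with the stress alone. For mitosis it was -0.23, -0.26 and -0.21 with VST, against -0.87, -0.95 and -0.84. RRM2, a subunit of ribonucleotide reductase, had 5890, 4750 and 3640 with VST. It had 2380, 1640 and 1730 with 2DG, 2020 and 1060 with GS in HT-1080, and 1050, 2310 and 1760 in HT-29, and its controls ran from 3280 to 5330. The arrays with VST were above all stress arrays, and apart from the 2DG array they lay in the range of the controls. Its mean difference was 1.37 (SE 0.13, adjusted p = 0.00214, limma). GINS2 and MCM10 of the replication fork (1.34 and 1.37), HMMR, a spindle protein (1.23), and TOP2A, a topoisomerase (1.01), rose likewise, while E2F3 fell (-1.25). The medians of both lists were lower with the deposited scaling, where 108 of all 11456 genes rose and 3170 fell. They were 0.37 for replication, with 7 rises and 4 falls, and 0.23 for mitosis, with 6 rises and 0 falls. Relative to all genes the medians stood at 0.81 and 0.67 with that scaling and at 0.83 and 0.70 here.

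The rises of abundant genes depended on scaling. With genes split by mean signal into 10 bins of equal size, 35.1% rose and 7.24% fell in the brightest bin, with a median of 0.34. The deposited scaling gave -0.07 and quantile normalization 0.05 for the same genes. In bin 4 from the dimmest, 1.92% rose and 16.2% fell (median -0.27). Of 31 ribosomal protein genes 29 rose, with a median of 0.51, which was 0.10 with the deposited scaling and 0.03 after quantile normalization, and 0 rose under either. Likewise 22 of 43 nuclear-encoded respiratory chain genes, 12 of 26 proteasome genes and 8 of 22 genes of glycolysis rose (medians 0.48, 0.44 and 0.38), against 1, 1 and 0 with the deposited scaling (medians 0.07, 0.03 and -0.02).

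**Figure D4:**
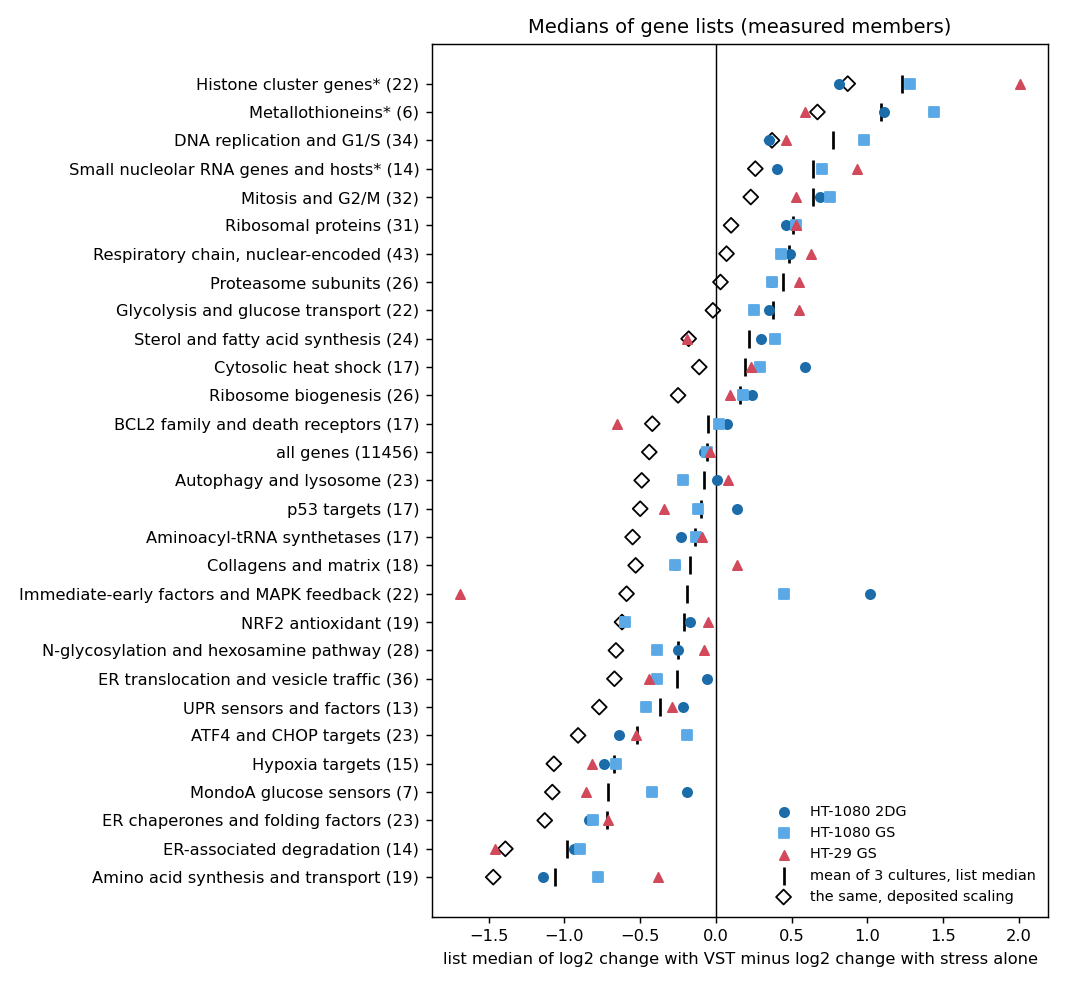
Median difference of each gene list in the 3 cultures (coloured symbols), for the mean of the cultures (black ticks) and for that mean with the deposited scaling (open diamonds), with the number of measured genes in brackets; lists marked * were looked up after values were seen. The ER, ERAD and amino acid lists lay left of zero in all 3 cultures and also by their mean with the deposited scaling, and the lists of ribosomal, respiratory chain and proteasome genes moved to near zero with the deposited scaling.

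**Figure D5:**
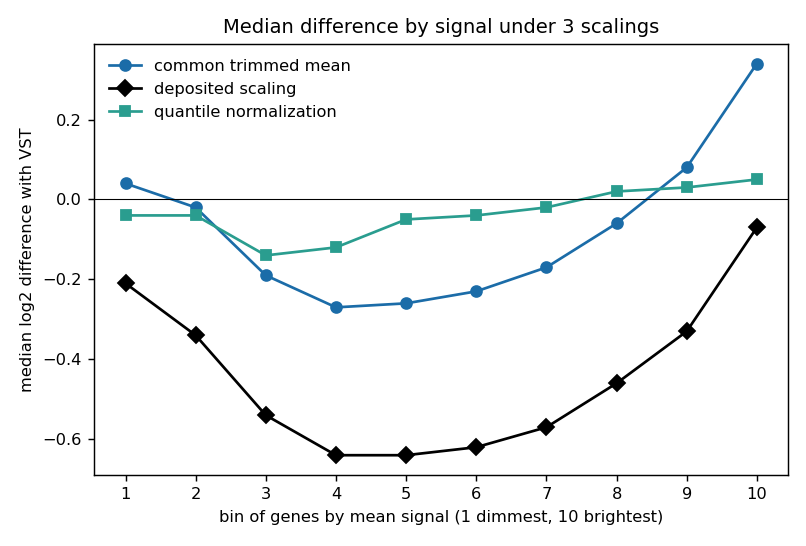
Median difference with VST in 10 bins of genes ordered by mean signal, from the dimmest to the brightest, under 3 scalings. The median climbed from -0.27 in bin 4 to 0.34 in bin 10 at a common trimmed mean, and all 10 medians were below zero with the deposited scaling.

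The remaining lists are given beside the shares over all genes, 6.77% rising and 12.6% falling. Of 24 genes of sterol and fatty acid synthesis 4 rose (16.7%) and 2 fell (8.33%), of 17 cytosolic heat shock genes 5 rose (29.4%) and 1 fell (5.88%), of 19 NRF2 antioxidant genes 2 rose (10.5%) and 5 fell (26.3%), and of 17 p53 targets 1 rose and 2 fell. Of 23 autophagy and lysosome genes 1 rose and 2 fell, of 17 BCL2 family and death receptor genes 1 rose and 2 fell, of 18 collagen and matrix genes 1 rose and 3 fell, of 26 genes of ribosome biogenesis 6 rose (23.1%) and 0 fell, and of 7 glucose-sensing genes around MondoA 0 rose and 1 fell. With the deposited scaling 1 heat shock gene, 0 sterol synthesis genes and 0 ribosome biogenesis genes rose. After quantile normalization these counts were 0, 3 and 1. GADD45A, a growth arrest gene, rose (1.41), and TNFRSF10B, a death receptor, fell (-1.28). The immediate-early list split by line, with medians of 1.02 and 0.45 in HT-1080 and -1.69 in HT-29, and 1 of 22 rose and 2 fell.

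Each culture was also tested alone, in 1 fit of the 20 arrays in which replicated stress arrays gave the spread. For 2DG in HT-1080, 259 genes rose (2.26%) and 628 fell (5.48%, 7.74% in all), for GS in HT-1080 533 rose (4.65%) and 1097 fell (9.58%, 14.2% in all), and for GS in HT-29 1285 rose (11.2%) and 2077 fell (18.1%, 29.3% in all). With the deposited scaling these splits were 75 and 1298, 74 and 2409, and 220 and 3385. Of the genes, 94 rose and 305 fell in all 3. The counts depend on single arrays: leaving out HT-1080 GS replicate 1 left 98 calls for GS in HT-1080, leaving out HT-1080 2DG replicate 2 left 236 for 2DG, and leaving out HT-29 GS replicate 1 left 1724 for HT-29. Leaving out HT-29 GS replicate 3 raised them to 1681 for 2DG, 2501 for GS in HT-1080 and 4215 for HT-29. Fits of the same line only gave 2615, 3404 and 1587, so the order of the cultures by count depends on the fit.

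The effect of VST in starved cells differed between the lines for 123 genes (1.07%), 20 with a higher (0.175%) and 103 with a lower (0.899%) difference in HT-29 (test of the difference in the same fit). Of the 123, 58 had opposite signs in the lines, 42 of them up in HT-1080 and down in HT-29. SPRY2, a feedback inhibitor of growth factor signalling, had 16.9 in HT-29 with VST, against 103, 67.3 and 115 with GS alone and 98.6 to 242 in HT-29 controls. In HT-1080 it had 3560 with VST, against 713 and 448 with GS alone and 661 and 849 in the controls of these arrays, and the difference between the lines was -4.64 (SE 0.35, adjusted p = 0.000209, limma). EGR1 had 216 in HT-29 with VST, against 5770, 8880 and 4490 with GS alone. In HT-1080 EGR1 had 6340 with VST, against 6130 and 520 (difference between the lines -5.75, SE 1.14, adjusted p = 0.0365, limma). CYP1A1, a target of the aryl hydrocarbon receptor, went the other way, with 547 in HT-29 with VST against 15.3, 53.9 and 6.25 with GS alone, and 19.5 in HT-1080 with VST against 29.8 and 57.1 (5.80, SE 0.82, adjusted p = 0.00864, limma). Its HT-29 controls had 2.88, 108 and 2.03. Each line had 1 starved array with VST, so a difference between the lines cannot be told apart from one between single arrays. The count fell to 13 without HT-1080 GS replicate 1 and was 524 without the 14 h array.

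MYC, the growth-promoting factor, had 5430 and 4520 in HT-1080 with VST, against 436 to 665 with 2DG and 1250 and 1140 with GS. In HT-29 it had 1670 with VST, against 1370 to 2000 with GS. The differences of 3.27 and 2.09 in HT-1080 stood beside 0.03 in HT-29, and the mean difference of 1.80 passed the test (SE 0.48, adjusted p = 0.0309, limma) but not with the deposited scaling or quantile normalization, without the intensity trend, without either HT-1080 array with VST, or without the 14 h array. In HT-1080 the effects of VST under 2DG and under GS were also compared. No gene passed, and 871 (7.6%) had an unadjusted p under 0.05 in limma, where there was 1 array with VST on each side.

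A further comparison set 2DG with VST against 2DG with a biguanide in HT-1080, since these 4 arrays name the same control. Biguanides inhibit mitochondrial respiration, and there was 1 array each with 10 mM metformin (Met), with buformin at 300 µM (Bu) and with 100 µM phenformin (Phen). Doses of different compounds cannot be matched, so the values stand side by side. In the fit 18 genes were higher (0.157%) and 50 lower (0.436%) with VST (0.594% in all). That count was 12, all lower, with no replicate block, 15 without the intensity trend, 20 with the mean of all probe sets, 28 with the deposited scaling and 33 without the filter. Leaving out 1 array gave 16 (HT-1080 2DG replicate 2) to 206 (HT-29 GS replicate 3). HERPUD1 had 709 with VST, against 4830 with Met, 3360 with Bu and 3450 with Phen, a difference of -2.42 (interval from -3.20 to -1.64 at 95%, adjusted p = 0.0135, limma). SDF2L1 had 319 against 1290, 1080 and 1230 (-1.89, adjusted p = 0.0135, limma), and HSP90B1 had 2770 against 7420, 8050 and 8160 (-1.51, adjusted p = 0.0135, limma). XBP1 (-1.45) and ALG12 (-2.16) were also lower with VST, and EDEM3 was higher (1.35). The dimmer probe set of HSPA5 had 342 with VST, against 369 with Met, 510 with Bu and 529 with Phen. HSPA5 had 10100 with VST against 13800, 13400 and 13900, a difference of -0.44 (interval from -0.78 to -0.09, adjusted p = 0.209, limma).

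Many of the largest moves with VST were present on the biguanide arrays too. PPP1R10 had 2.79 with VST and 17.0, 1.41 and 13.9 with Met, Bu and Phen, and the difference was -0.79 (interval from -1.80 to 0.22). VMP1 had 1340 with VST and 1330, 784 and 903 with the biguanides (difference 0.45, interval from -0.15 to 1.05). MYC had 5430 with VST and 4970, 5480 and 4930 (difference 0.09, interval from -0.41 to 0.58), and SLC38A2 had 429 with VST and 664, 326 and 379 (difference -0.02, interval from -0.61 to 0.58). These intervals bound the differences and do not show that the compounds act alike. In 2DG with VST minus 2DG with biguanides the median was -0.44 for ER chaperones, 0.04 for ERAD genes and 0.09 over all genes. It was -0.02 for amino acid genes, 0.01 for DNA replication and -0.03 for mitosis.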

How the data were processed

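Total RNA of each culture was hybridized to 1 Affymetrix expression array. The authors deposited 1 linear intensity per probe set and array, made with MAS5 per the submitters' processing notes (version not given in the sources used here). The table holds 54675 probe sets on 38 arrays, 232 with a missing value and left out. All arrays were brought to 1 trimmed mean (2% trimmed, 114), and log2 was taken of the intensity plus 5% of it (5.69). Probe sets with 1 gene symbol (41097, of which 41043 were updated by gene ID) that reached 40% of the trimmed mean (45.5) on at least 2 arrays were kept (21480), and the one with the highest mean log2 value stood for its gene (11456 genes).

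The 3 differences were tested in limma 3.58.1 (R 4.3.3) with an intercept and an intensity trend, on 2 residual degrees of freedom plus the prior. The 3 changes from own control with VST were tested in the same way. Single cultures and line differences came from 1 fit of 20 arrays with each control set as a block (5 residual degrees of freedom). The biguanide comparison came from 23 arrays (7 residual degrees of freedom). An array without replicates was taken to vary as replicated ones do. The pairing comes from the sample descriptions: over 8 stress arrays, the deviation from the group mean correlated at 0.26 to 0.63 with that of the named control, for all 8 more than with any other control. The fits were also run on simulated data with independent normal errors of the fitted spread. Such data cannot test whether an array without replicates varies as replicated ones do.

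Genes were named by a rule: 12 stress genes, the 12 largest rises and falls with 1 sign in all cultures, up to 4 called members per list of 27 lists, and in other comparisons the 6 largest each way, of which the text gives some. Further list members that are named for what fell, rose or did not pass (such as HYOU1, PDIA6, CALR, DERL1, RPN1, ATF6, PSAT1 and E2F3), and histone, metallothionein and small nucleolar RNA genes, were added after their values were seen. Members, lists and tests were chosen with earlier results of these data known. Alternatives were other scalings, offsets, filters, probe set rules, tests and arrays. Promoter windows are RefSeq's for GRCh38.p14.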

Additional observations from a re-analysis of the deposited data

Results flagged for a closer look

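In 8 of 79 genes searched, 1 of the 6 HT-1080 controls stood apart from the other 5 by a gap that is large against the range of the group (Dixon's test). In genes not chosen by their values, chance alone gives about 1 group in 20. The 79 genes include those named for large differences, in which these same controls enter, so that rate is no measure for them. As log2 distance from the median of the other controls, control replicate 6 was at 1.12 for ASNS, 0.54 for SLC38A2, 3.88 for INHBE and 0.47 for H1-2. Control replicate 1 was at -0.28 for EDEM1 and -0.67 for VEGFA, and control replicate 3 at -2.26 for MIA and -1.57 for H2AC5P. Replicate 3 is the own control of HT-1080 2DG with VST, replicate 1 that of HT-1080 GS with VST, and replicate 6 that of HT-1080 GS replicate 2.

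In 19 named genes the effect of VST under glucose starvation differed between the lines by the test of the difference in limma. EGR1, SPRY2, NANOS1, FAM110C, TMEM125, PLEKHA6, NLRP3, CHST15, GPR84, SLC14A1 and CYP1A1 were named by this same test. Their passing was thus set in advance. NOG and MAML3 were among the largest moves for GS in HT-1080, and RNF145 and E2F6 among those for GS in HT-29. These effects make up the difference, so the count describes and does not test. Over all genes 1.07% passed. The difference, HT-29 minus HT-1080, was negative for EDEM3 (-1.80), SLC7A1 (-1.24), RNF145 (-3.34), CUL3 (-1.69), EGR1 (-5.75), SPRY2 (-4.64), NANOS1 (-4.64), FAM110C (-4.42), TMEM125 (-4.25), PLEKHA6 (-4.18), NOG (-4.10), E2F6 (-4.07) and KLF4 (-4.03). It was positive for MAML3 (1.98), NLRP3 (3.21), CHST15 (3.58), GPR84 (4.09), SLC14A1 (4.19) and CYP1A1 (5.80).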

How the results depend on the processing

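Of 72 called genes among the 79 examined, 65 kept their call with the deposited scaling, 66 after quantile normalization, 39 without the intensity trend, 63 without HT-1080 2DG with VST, 56 without HT-1080 GS with VST and 68 without HT-29 GS with VST. With the deposited scaling the counts were 3692 against own controls, 1373 for 2DG, 2483 for GS in HT-1080 and 28 against biguanides. Without the filter they were 545 for 2DG, 81 between the lines and 33 against biguanides, and with the mean of all probe sets 80 between the lines and 20 against biguanides. Without the intensity trend they were 464 over the 3 cultures, 473 against own controls, 527 for 2DG, 950 for GS in HT-1080, 74 between the lines and 15 against biguanides. With no replicate block the counts were 2262 over the 3 cultures, 1484 for 2DG and 12 against biguanides. A shared VST coefficient gave 4135 calls, and fits of the same line only gave 2615 for 2DG, 3404 for GS in HT-1080 and 1587 for HT-29. Leaving out 1 array gave 945 to 2179 over the 3 cultures, 876 to 1857 against own controls, 236 to 1681 for 2DG, 98 to 2501 for GS in HT-1080, 1724 to 4215 for HT-29, 13 to 524 between the lines, 0 between 2DG and GS, and 16 to 206 against biguanides.

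Signs turned for CREB5 (-1.29 with the deposited scaling, -0.99 with the 2% offset), STK40 (0.25 after quantile normalization, 0.08 with the 2% offset) and NANOS1 between the lines (0.72 without the filter), where another probe set stands for the gene. Against own controls CHAC1 was -0.08 with the deposited scaling and -0.14 with no replicate block, and SDF2L1 was 0.14 after quantile normalization. List medians turned for glycolysis (-0.02), sterol synthesis (-0.18), heat shock (-0.11) and ribosome biogenesis (-0.25) with the deposited scaling, for the BCL2 family with the stricter filter (0.04) and without HT-1080 GS with VST (0.04), and for NRF2 genes (0.01) and collagens (0.03) with no replicate block. With 1 array left out the mean difference ranged from -0.28 to 0.11 for ATF4 (0.08 without HT-1080 2DG with VST, 0.09 without HT-29 GS with VST, 0 without HT-29 GS replicate 1 or 2) and from -0.27 to 0.09 for HSPA5, and the median from -0.76 to 0.85 for the immediate-early list (0.06 without HT-1080 GS replicate 1) and from -0.13 to 0.04 for the BCL2 family. Apart from the turned probe sets and the deposited scaling, the cause was not tested. With 1 array per culture with VST, the number of arrays limits the precision.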
